A study of Mus musculus with 12 samples.

Results

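The S phase and DNA replication genes are 54 genes of DNA replication, nucleotide synthesis and the G1/S transition, described here in mouse CD8 T cells. They are a list of named genes whose rule uses no measured value, although it was chosen with earlier results of these data known. Each symbol matched 1 identifier of the deposited gene table. All 54 were among the 13167 genes with enough counts to be tested, of 46603 listed. The lowest count of any member in any library was 54, for Gins1.

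Polyadenylated RNA was sequenced from cultured OT-I/Cas9 mouse CD8 T cells (OT-I supplies a fixed transgenic receptor for antigen, and Cas9 is the nuclease that the guides direct), in 6 groups of 2 libraries. Cells with Tmed10 guides and vehicle (the knockout), cells with control guides and AGN192403 (100 µM), and cells with control guides and vehicle (water, the control) were each sampled after 24 h with antibody to CD3 (2.5 µg/mL, activated) and after 24 h without it (resting). Tmed10 encodes a cargo receptor of the early secretory pathway, and AGN192403 is an imidazoline receptor ligand used by the study against TMED proteins. Per the study's methods, an earlier stimulation with antibodies to CD3 and CD28 preceded delivery of the guides and expansion, so all 6 groups come from cells that had been activated once and were kept in IL-2, IL-7 and IL-15, and resting means not stimulated again. The labels name no clone, and whether the 2 replicates of a group are separate cultures or mice is not given in the sources used here, so p-values measure the spread between these libraries, which may be only technical.

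A cell copies its genome once per division. In G1, ring-shaped helicases are loaded onto origins of replication, and in S phase they are switched on and joined by polymerases, a sliding clamp and repair enzymes, while nucleotides and histones are supplied for the new strands. Transcripts of most of these genes are made under E2F transcription factors and peak at the G1/S transition or in S phase, so they are commonly read as a sign of cycling cells, and CD8 T cells that have been primed divide quickly. In bulk RNA, however, fewer cells in S phase and less RNA of these genes per cell cannot be told apart.

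Total counts ran from 9089350 to 16481840 per library, and replicates correlated at 0.992 to 0.995 on log2 CPM (CPM is the count scaled to a common library size after TMM). Tmed10 had 55.9 and 58.3 CPM in activated and 61.5 and 65.1 CPM in resting knockout cells, against 116 to 144 CPM in the 8 libraries with control guides. Reads from an edited allele are still counted, so this level does not measure editing. The CD8 co-receptor gene Cd8a stood at 632 to 780 CPM in all libraries. The 10 CD8 T cell markers summed to 22000.0 and 23000.0 CPM in activated knockout, 16760.0 and 18150.0 CPM in activated AGN192403 and 23730.0 and 24910.0 CPM in activated control cells, and at rest to 14070.0 and 14120.0, 13400.0 and 13560.0 and 14800.0 and 15270.0 CPM in the same groups. These 10 were Cd8a, Cd8b1, Cd3d, Cd3e, Cd3g, Cd2, Thy1, Lck, Zap70 and Gzmb. In the activated knockout 2 were called lower (Cd2 −0.43, Gzmb −0.15) and 2 higher, against 8.78% of all genes tested lower and 10.8% higher. With AGN192403 4 were lower (Cd2 −0.60, Gzmb −0.58, Thy1 −0.22, Lck −0.15) and 1 higher in activated cells, against 18.3% of all genes lower and 16.4% higher. At rest with AGN192403 6 were lower, against 13.7% of all genes. In the resting knockout 1 was lower, against 4.63% of all genes. Between resting and activated control cells 5 of the 10 were called lower after activation (Cd3g −1.34, Cd3e −1.23, Zap70 −1.07, Cd3d −0.85, Lck −0.72). There 3 were called higher (Gzmb 1.055, Thy1 0.16, Cd8a 0.11), so the sums do not give the direction of each marker. Of all genes tested, 37.4% were called lower and 36.4% higher in that comparison. The 3 CD4 T cell markers summed to 45.1 and 50.8 CPM in activated knockout, 68.1 and 63.2 CPM in activated AGN192403 and 36.6 and 33.3 CPM in activated control cells, and to 56.1 to 62.6 CPM at rest. Of the 2 with enough counts to be tested, Zbtb7b, a transcription factor gene of CD4 T cells, was called higher in the activated knockout (0.43 ± 0.075) and with AGN192403 in activated cells (0.92 ± 0.0711), while Cd4 itself stayed at 0.378 to 1.29 CPM with no call in any of the 4 comparisons with control vehicle cells. The part of these marker changes in the members' results was not tested. The NK cell and erythroid marker sums were no more than 0.799 CPM. The summed B cell markers ran from 0.944 to 8.08 CPM and the myeloid markers from 0.189 to 5.25 CPM. Long nuclear RNAs differed between libraries of a group and between groups. Malat1 had 437 and 400.3 CPM in activated knockout, 1833 and 752 CPM in activated AGN192403, 1631 and 989 CPM in activated control, 733 and 751 CPM in resting knockout, 1100.0 and 1156 CPM in resting AGN192403 and 2594 and 1540.0 CPM in resting control libraries. Without the 3 libraries richest in Malat1 of their pairs, the members called were 30 in place of 40 in activated knockout cells, 53 in place of 53 with AGN192403 in activated cells, 0 in place of 0 in resting knockout cells and 40 in place of 44 with AGN192403 at rest. The members' sums differed little between the same replicates. Counts over all genes without those 3 libraries are not given here.

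The members summed to 4244 and 4295 CPM in activated knockout cells, 3045 and 3100.0 CPM in activated AGN192403 cells and 5024 and 5057 CPM in activated controls. At rest they summed to 6192 and 6133 CPM in knockout cells, 5058 and 5140.0 CPM with AGN192403 and 6160.0 and 6226 CPM in controls. The 2 libraries of each group lay close together, and the groups overlapped only between resting knockout and resting control cells and came near each other between resting AGN192403 and activated control cells. The mean sum was 15.3% lower in activated knockout than in activated control cells, 39.0% lower with AGN192403 than with vehicle in activated cells, 17.7% lower with AGN192403 at rest, and 0.501% lower in resting knockout cells.

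Log2 fold changes are those of the knockout, AGN192403 or activated cells over the group they are set against, so a negative one is a lower level there, and a value after ± is the SE unless SD is named. A gene is called here at an adjusted p under 0.05, from edgeR's quasi-likelihood test with Benjamini-Hochberg adjustment over all 13167 genes. In activated cells the knockout had 40 of 54 members called lower and 0 higher, where 8.78% of all genes tested were called lower and 10.8% higher. AGN192403 had 53 lower and 0 higher in activated cells, against 18.3% of all genes lower and 16.4% higher, and 44 lower and 0 higher at rest, against 13.7% lower and 11.6% higher. In resting knockout cells edgeR called 0 members in either direction, against 4.63% of all genes lower and 2.81% higher. There, 6 members had an unadjusted p under 0.05, and DESeq2 called 0. The median log2 fold change of the members was −0.26 (knockout, activated), −0.72 (AGN192403, activated), −0.01 (knockout, resting) and −0.24 (AGN192403, resting), where the median over all genes lay at 0.02, −0.01, 0.00 and −0.01. The knockout and AGN192403 comparisons share their control libraries, so their values are set side by side and not as independent results. Ung was the 1 member called in none of the 11 contrasts that were fitted.

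**Figure D1:**
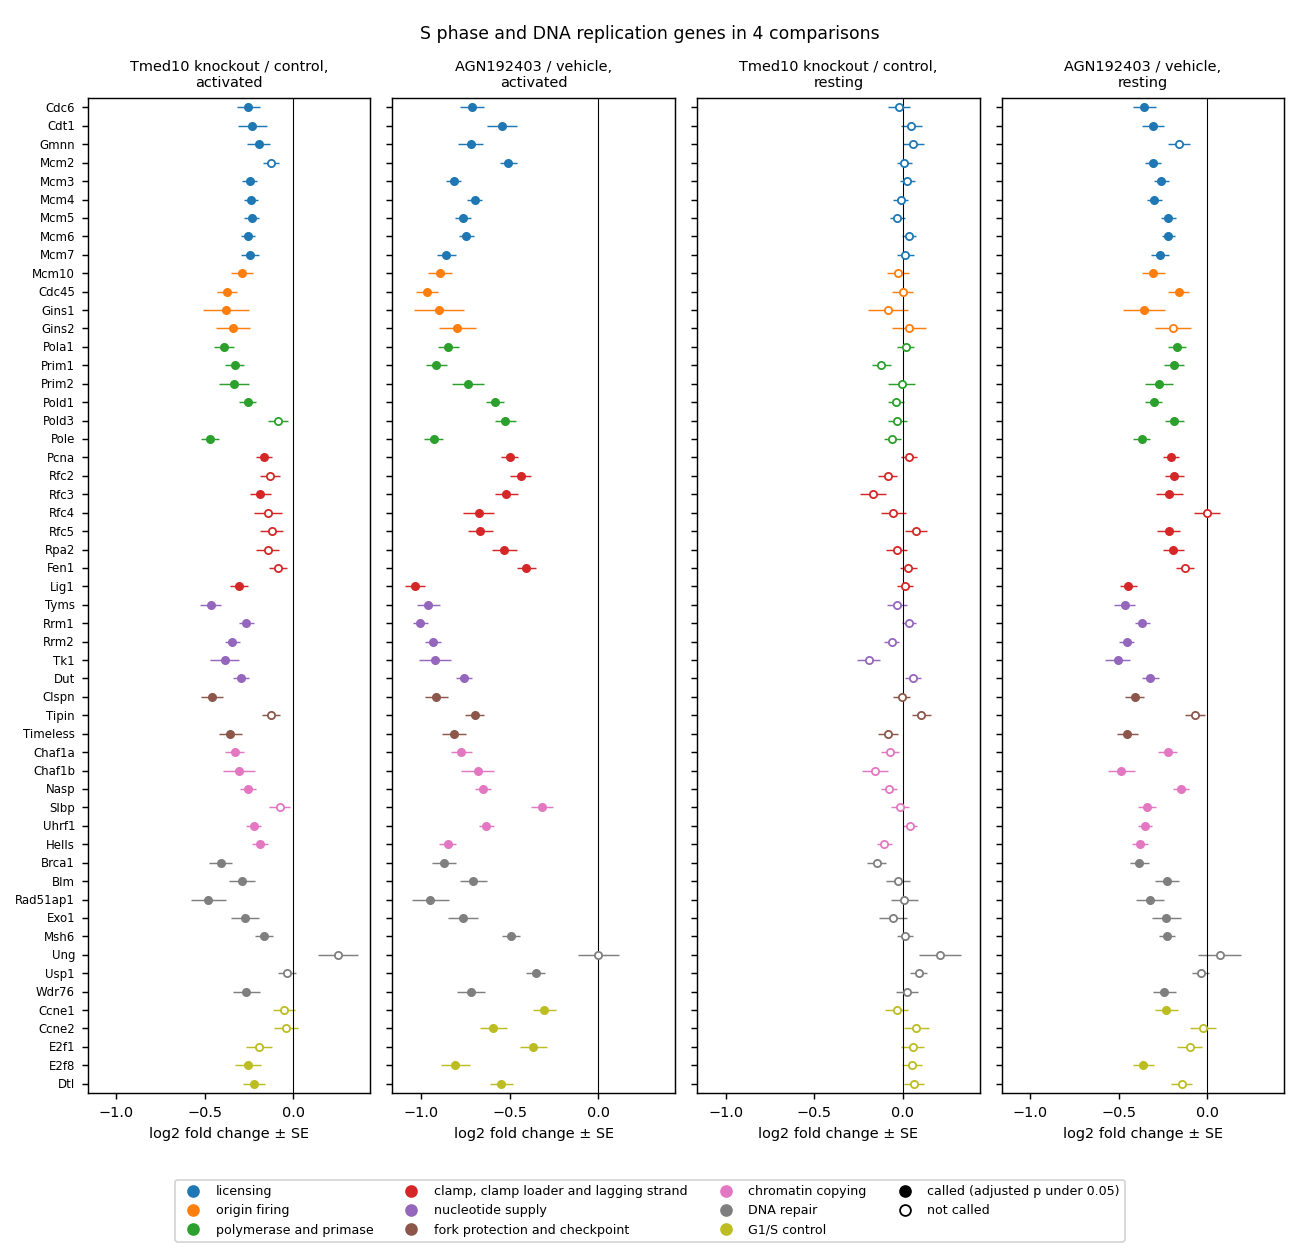
Log2 fold change (horizontal axis) with its SE for each of the 54 members, grouped by role, in the 4 comparisons with control vehicle cells. Filled points passed the threshold of 0.05 on the adjusted p. In activated cells with AGN192403 53 members lie left of 0 and pass, in activated knockout cells 40 do so with smaller shifts, in resting knockout cells the points scatter around 0, and in resting AGN192403 cells 44 pass.

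A promoter feature of genes under E2F factors was more frequent among the members than among all promoters, although most members lacked it. Because most genes of this kind are made under E2F factors, this describes the list and is no separate result. All promoters here include those of genes that were not tested. RefSeq windows (build GRCm38.p6) reaching from 250 bases before to 50 after a start were matched for 43 members, with 49 windows. An E2F letter string (TTTCCCGC, TTTGGCGC, TTTCGCGC or TTTGCCGC, on either strand) was found in at least 1 window of 16 of these members. That is 32.7% of the 49 windows, where 2.26% of all 32851 promoter windows of the same length held one. The CCAAT box (CCAAT, either strand) was found in 55.1% of member windows and 37.4% of all windows, and the CHR element (TTTGAA or TTTAAA, either strand) in 22.4% and 27.6%. A match describes letters only and is no evidence of binding. The windows below are from Lig1, Clspn, Mcm7 and Hells, and from Ung, the member with the smallest change under AGN192403 in activated cells. Lig1 has 3 windows and Mcm7 has 2. For each of them only the 1 window with an E2F string is printed, and the others hold none. Lig1, Clspn, Mcm7 and Hells had the largest falls there among the members with an E2F string only. Rrm1, Cdc45, Tyms and Rad51ap1 had no E2F string in their windows and fell more than Clspn, Mcm7 and Hells. Whether the string goes with the size of a fall was not tested. Each window reads 5′ to 3′ on the strand of its gene. Capitals mark the E2F strings, and the window of Ung has none.
Lig1 (chr7:13278576-13278875, plus strand): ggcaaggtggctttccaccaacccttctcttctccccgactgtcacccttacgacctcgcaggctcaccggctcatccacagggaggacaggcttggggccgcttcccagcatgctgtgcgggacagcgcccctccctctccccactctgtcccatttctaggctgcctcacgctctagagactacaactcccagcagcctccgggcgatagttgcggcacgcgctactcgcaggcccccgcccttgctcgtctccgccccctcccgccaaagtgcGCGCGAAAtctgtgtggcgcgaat
Clspn (chr4:126556730-126557029, plus strand): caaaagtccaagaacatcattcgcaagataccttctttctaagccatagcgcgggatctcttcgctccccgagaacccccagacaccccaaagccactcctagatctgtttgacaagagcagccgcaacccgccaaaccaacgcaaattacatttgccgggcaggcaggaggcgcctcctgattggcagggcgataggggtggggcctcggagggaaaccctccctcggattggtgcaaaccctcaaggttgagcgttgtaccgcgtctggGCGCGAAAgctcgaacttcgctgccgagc
Mcm7 (chr5:138171834-138172133, minus strand): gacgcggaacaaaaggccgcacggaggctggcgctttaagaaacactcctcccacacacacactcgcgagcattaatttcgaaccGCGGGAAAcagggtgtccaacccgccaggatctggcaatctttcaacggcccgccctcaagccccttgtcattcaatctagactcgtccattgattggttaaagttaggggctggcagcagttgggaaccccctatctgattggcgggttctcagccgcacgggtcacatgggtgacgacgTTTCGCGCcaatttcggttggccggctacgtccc
Hells (chr19:38930740-38931039, plus strand): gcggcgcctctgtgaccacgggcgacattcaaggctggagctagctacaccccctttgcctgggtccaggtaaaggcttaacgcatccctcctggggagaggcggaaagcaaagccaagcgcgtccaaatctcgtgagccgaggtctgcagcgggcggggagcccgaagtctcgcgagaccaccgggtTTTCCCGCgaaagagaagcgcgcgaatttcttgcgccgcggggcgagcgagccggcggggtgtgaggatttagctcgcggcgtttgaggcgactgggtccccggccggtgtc
Ung (chr5:114130185-114130484, plus strand): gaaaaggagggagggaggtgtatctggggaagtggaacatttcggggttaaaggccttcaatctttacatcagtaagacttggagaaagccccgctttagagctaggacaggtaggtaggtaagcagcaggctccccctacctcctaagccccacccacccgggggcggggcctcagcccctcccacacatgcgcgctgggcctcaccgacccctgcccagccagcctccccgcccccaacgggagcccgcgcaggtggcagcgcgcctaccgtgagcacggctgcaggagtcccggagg

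The licensing genes load the helicase ring. All 9 were lower with AGN192403 in activated cells (median −0.72) and 8 of 9 in activated knockout cells (median −0.24), where only Mcm2 was not called. Mcm3, a ring subunit, had 222 and 217 CPM in activated knockout, 141 and 154 CPM in activated AGN192403 and 255 and 266 CPM in activated control cells. These 3 groups did not overlap, with a log2 fold change of −0.25 ± 0.0432 (SE, edgeR adjusted p = 0.000148) for the knockout and −0.82 ± 0.0447 (SE, edgeR adjusted p = 2.19e-13) for AGN192403. At rest Mcm3 had 280.5 and 281 CPM in the knockout, 231 and 229.6 CPM with AGN192403 and 274 and 277 CPM in controls, so that the knockout libraries lay just above the controls (0.03 ± 0.0424, not called) and the AGN192403 libraries well below (−0.26 ± 0.0432, called). Mcm6, the most abundant ring subunit per kilobase of exon in resting cells, stood at 264 and 257 CPM in activated knockout, 186 and 186 CPM in activated AGN192403 and 312 and 312 CPM in activated control cells (knockout −0.26 ± 0.0388, AGN192403 −0.74 ± 0.0398). At rest its libraries read 398 and 403 CPM in the knockout, 337 and 334 CPM with AGN192403 and 386 and 396 CPM in controls. Mcm5 had the same order in activated cells, with 199 and 198 CPM in activated knockout, 134 and 142 CPM in activated AGN192403 and 229 and 239.5 CPM in activated control cells, and at rest 301 and 296, 256 and 267 and 303 and 308 CPM in the same groups. Mcm2 had 143 and 143 CPM in activated knockout, 107 and 113 CPM in activated AGN192403 and 154 and 159 CPM in activated control cells. Its fall under AGN192403 was the smallest of the ring (−0.51 ± 0.048), and its knockout value of −0.13 ± 0.0466 missed the threshold (edgeR adjusted p = 0.056). Mcm4 and Mcm7 gave log2 fold changes of −0.24 and −0.24 in the activated knockout, and of −0.70 and −0.86 with AGN192403 in activated cells.

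Cdc6 and Cdt1 bring the ring to origins, and Gmnn encodes geminin, the inhibitor of Cdt1. Cdc6 had 41.9 and 44.8 CPM in activated knockout, 31.3 and 31.3 CPM in activated AGN192403 and 50.4 and 52.3 CPM in activated control cells, with log2 fold changes of −0.25 ± 0.0643 and −0.71 ± 0.0687. At rest it had 57.5 and 52.9 CPM in the knockout, 43.9 and 44.2 CPM with AGN192403 and 54.2 and 58.2 CPM in controls, and its fall with AGN192403 (−0.36 ± 0.0642, edgeR adjusted p = 0.000155) was the largest of the licensing genes there. Cdt1 had 30.6 and 27.8 CPM in activated knockout, 24.9 and 22.9 CPM in activated AGN192403 and 34.1 and 35.2 CPM in activated control cells, all far below the 75.5 and 74.9, 63.6 and 55.1 and 73.5 and 72.1 CPM of the resting knockout, AGN192403 and control cells. Geminin transcripts were lower in the activated knockout, at −0.20 ± 0.0663 and with AGN192403 in activated cells, at −0.72 ± 0.0717, and its value of −0.16 ± 0.0613 with AGN192403 at rest was not called (edgeR adjusted p = 0.0547).

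The origin firing genes switch the loaded helicase on, and all 4 were lower in both activated comparisons, with medians of −0.36 in the knockout and −0.90 with AGN192403. Cdc45, a subunit of the active helicase, had 53.3 and 49.7 CPM in activated knockout, 35.9 and 33.2 CPM in activated AGN192403 and 65.8 and 68.7 CPM in activated control cells. No library of 1 group reached another, and the log2 fold changes were −0.38 ± 0.0582 (SE, edgeR adjusted p = 3.35e-05) and −0.97 ± 0.0631 (SE, edgeR adjusted p = 5.63e-12). At rest the knockout and control libraries overlapped and those with AGN192403 lay below (−0.16 ± 0.0595, called), at 62.7 and 59.6 CPM in the knockout, 54.7 and 55.1 CPM with AGN192403 and 61.6 and 61.3 CPM in controls. Mcm10, which acts at the start of unwinding, had 50.03 and 53.6 CPM in activated knockout, 33.2 and 34.3 CPM in activated AGN192403 and 65.7 and 59.99 CPM in activated control cells (knockout −0.29 ± 0.0627, AGN192403 −0.89 ± 0.0681). Its resting libraries read 60.5 and 59.6 CPM in the knockout, 48.8 and 50.1 CPM with AGN192403 and 64.4 and 58.6 CPM in controls. Gins1 and Gins2, subunits of the same active helicase, gave −0.38 ± 0.129 and −0.34 ± 0.0975 in the activated knockout, and −0.90 ± 0.141 and −0.80 ± 0.105 with AGN192403 in activated cells. Gins1 was the least counted member, and had the widest SE of all members in both activated comparisons.

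Of the 6 polymerase and primase genes, 5 were lower in the activated knockout, all but Pold3, and all 6 were lower with AGN192403 in activated and in resting cells. Pole, the catalytic subunit of the leading strand polymerase, had 74.3 and 81.9 CPM in activated knockout, 56.2 and 56.5 CPM in activated AGN192403 and 110.2 and 104 CPM in activated control cells. Its fall of −0.47 ± 0.0518 (SE, edgeR adjusted p = 3.12e-07) was among the largest of any member in the knockout, and with AGN192403 it was −0.93 ± 0.0546 (SE, edgeR adjusted p = 8.4e-13). Resting cells had 137 and 134 CPM in the knockout, 109 and 109 CPM with AGN192403 and 143 and 140.1 CPM in controls. Pola1, which extends the first primers together with the primase, had 65.6 and 67.3 CPM in activated knockout, 48.2 and 48.6 CPM in activated AGN192403 and 90.1 and 83.9 CPM in activated control cells (−0.39 ± 0.0543 and −0.85 ± 0.0575). At rest Pola1 had 100.4 and 108 CPM in the knockout, 90.8 and 90.8 CPM with AGN192403 and 104 and 101 CPM in controls. The primase genes Prim1 and Prim2 were lower, at −0.33 ± 0.0555 and −0.34 ± 0.0839 in the activated knockout and −0.91 ± 0.0601 and −0.73 ± 0.0894 with AGN192403. The lagging strand polymerase subunits Pold1 and Pold3 gave −0.26 ± 0.0494 and −0.09 ± 0.0582 in the activated knockout, of which only the first was called, and −0.58 ± 0.0512 and −0.52 ± 0.0616 with AGN192403.

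The clamp, its loader and the lagging strand enzymes had few knockout calls, with 3 of 8 lower (Pcna, Rfc3 and Lig1) and a median of −0.14, whereas all 8 were lower with AGN192403 in activated cells (median −0.52). Lig1, the ligase that seals fragments of the lagging strand, had 89.5 and 85.6 CPM in activated knockout, 52.9 and 53.2 CPM in activated AGN192403 and 110.1 and 107 CPM in activated control cells. It had the largest fall of all members under AGN192403 (−1.03 ± 0.0547, edgeR adjusted p = 1.13e-13) and fell by less in the knockout (−0.31 ± 0.0505, edgeR adjusted p = 6.64e-05). At rest Lig1 had 175 and 180.1 CPM in the knockout, 125 and 133 CPM with AGN192403 and 171 and 180.5 CPM in controls. Pcna, the sliding clamp itself, had 155 and 165 CPM in activated knockout, 125 and 128 CPM in activated AGN192403 and 176 and 182 CPM in activated control cells. The groups did not overlap, and the changes were modest at −0.17 ± 0.0459 (SE, edgeR adjusted p = 0.01) for the knockout and −0.50 ± 0.0471 (SE, edgeR adjusted p = 4.92e-09) for AGN192403. Resting cells averaged 203 ± 4.09 CPM of Pcna in the knockout, 171 ± 8.31 CPM with AGN192403 and 198 ± 3.2 CPM in controls (SD, n = 2 each), and only the AGN192403 libraries stood apart. Fen1, the nuclease that trims fragment ends, had 83.7 and 81.4 CPM in activated knockout, 68.5 and 64.5 CPM in activated AGN192403 and 89.2 and 86.6 CPM in activated control cells, with a called fall for AGN192403 (−0.41 ± 0.0533) and a value of −0.09 ± 0.0513 for the knockout that was not called (edgeR adjusted p = 0.258). Resting Fen1 read 110.2 and 114 CPM in the knockout, 98.5 and 102 CPM with AGN192403 and 107 and 112 CPM in controls. The clamp loader genes Rfc2, Rfc4 and Rfc5 and the single strand binding subunit Rpa2 ranged from −0.14 to −0.12 in the activated knockout without a call. Fen1 overlaps the protein-coding gene Tmem258 on the opposite strand, and Rfc2, Rfc4, Rfc5, Lig1, Mcm7, Cdc45, Gins2, Chaf1a, Msh6, Ccne2 and Tk1 likewise overlap other protein-coding genes. Their values are less certain, because whether the counting used strand is not given in the sources used here.

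The nucleotide supply genes were called lower, 5 of 5 each time, in the 3 comparisons of knockout or AGN192403 with control vehicle cells that had called members. Their medians were −0.35 (knockout, activated), −0.93 (AGN192403, activated) and −0.46 (AGN192403, resting). Tyms makes thymidylate. It had 41.8 and 44.1 CPM in activated knockout, 29.1 and 31.5 CPM in activated AGN192403 and 60.2 and 57.98 CPM in activated control cells, changes of −0.47 ± 0.0598 (SE, edgeR adjusted p = 2.68e-06) and −0.96 ± 0.0642 (SE, edgeR adjusted p = 9.13e-12). At rest Tyms had 59.4 and 59.2 CPM in the knockout, 44.4 and 43.4 CPM with AGN192403 and 61.1 and 60.1 CPM in controls, so the knockout libraries lay next to the controls and the AGN192403 libraries well below. Rrm1 and Rrm2 encode the subunits of ribonucleotide reductase, which makes deoxyribonucleotides. Rrm1 had 256 and 270.5 CPM in activated knockout, 155 and 160.0 CPM in activated AGN192403 and 311 and 321 CPM in activated control cells (−0.27 ± 0.0411, edgeR adjusted p = 3.16e-05 and −1.005 ± 0.0429, edgeR adjusted p = 2.88e-15). Rrm1 at rest stood at 357 and 362 CPM in the knockout, 272 and 273 CPM with AGN192403 and 346 and 357 CPM in controls. Rrm2 had 183 and 173 CPM in activated knockout, 121 and 117 CPM in activated AGN192403 and 225 and 228 CPM in activated control cells, and at rest 329 and 314, 248 and 243 and 331 and 342 CPM in the same groups. Its falls were −0.35 ± 0.0438 in the activated knockout, −0.93 ± 0.0457 with AGN192403 in activated cells and −0.45 ± 0.042 with AGN192403 at rest.

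Tk1, the thymidine kinase of the salvage route, had 33.7 and 31.1 CPM in activated knockout, 24.1 and 21.4 CPM in activated AGN192403 and 39.3 and 46.2 CPM in activated control cells. Its resting libraries had 67.5 and 67.2 CPM in the knockout, 54.7 and 53.8 CPM with AGN192403 and 82.3 and 72.6 CPM in controls. With AGN192403 at rest it showed the largest fall of any member (−0.51 ± 0.0699, edgeR adjusted p = 4.85e-06), and in the resting knockout its −0.19 ± 0.0668 was the lowest value of any member without being called (edgeR adjusted p = 0.0821). Dut, which clears dUTP, had 108 and 111 CPM in activated knockout, 78.7 and 80.5 CPM in activated AGN192403 and 131 and 139 CPM in activated control cells (−0.30 ± 0.0455 and −0.76 ± 0.0477). At rest Dut had 125 and 127 CPM in the knockout, 96.5 and 96.5 CPM with AGN192403 and 119 and 122 CPM in controls.

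**Figure D2:**
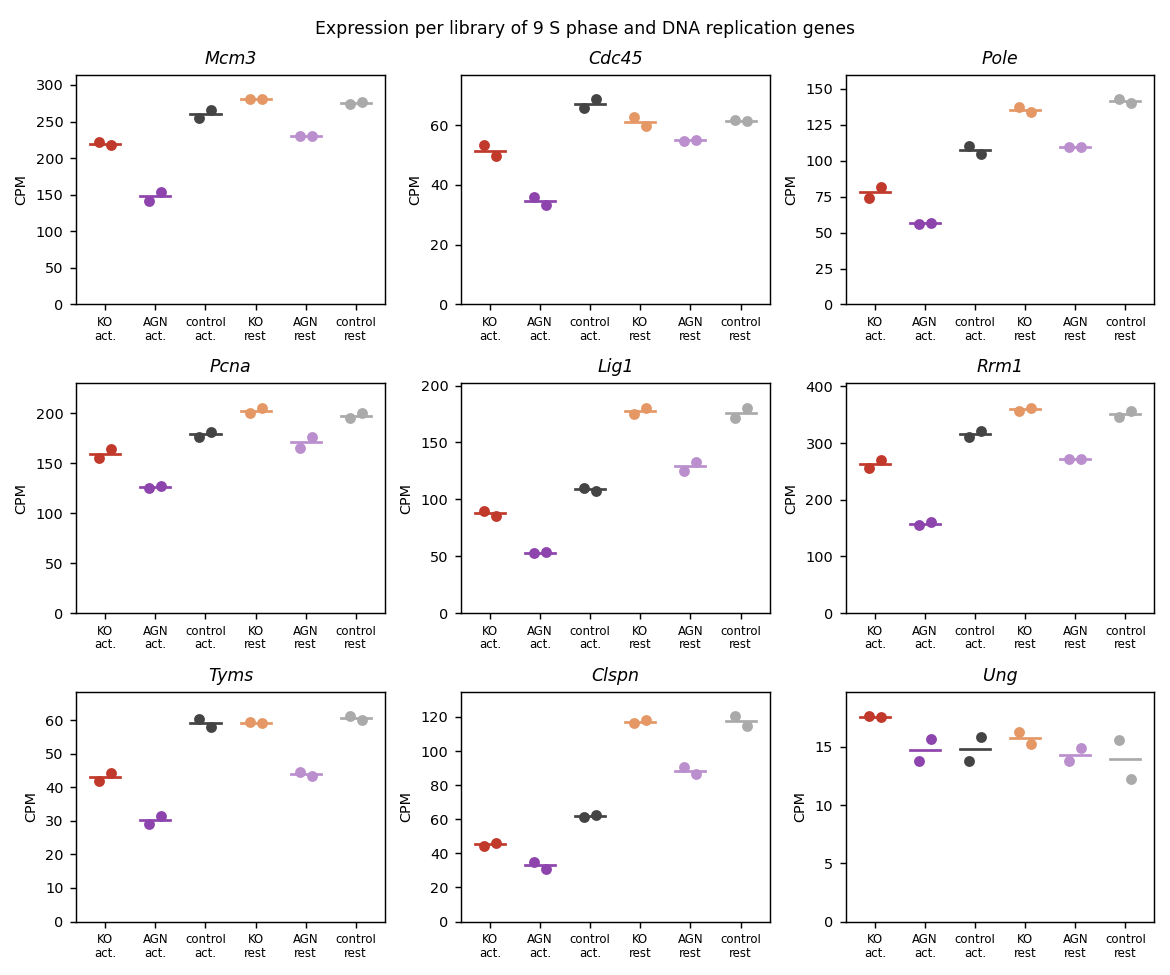
CPM per library (vertical axis, from 0) of 9 members in the 6 groups, with 2 libraries a group as points and their mean as a line (KO, Tmed10 knockout; AGN, AGN192403; act., activated). For Lig1 the activated AGN192403 libraries lie at 52.9 and 53.2 CPM, below the activated knockout at 89.5 and 85.6 CPM and the activated control at 110.1 and 107 CPM, while for Ung all 12 libraries lie between 12.3 and 17.6 CPM.

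Fork protection genes keep the replication machine on stalled DNA. Clspn, which encodes the checkpoint adaptor claspin, had 44.5 and 46.1 CPM in activated knockout, 35.1 and 31.1 CPM in activated AGN192403 and 61.3 and 62.7 CPM in activated control cells. The knockout value of −0.46 ± 0.0617 (SE, edgeR adjusted p = 5.3e-06) was among the 4 largest falls of that comparison, beside Rad51ap1, Tyms and Pole, and the AGN192403 value was −0.91 ± 0.0659 (SE, edgeR adjusted p = 3.81e-11). At rest Clspn had 116 and 118 CPM in the knockout, 90.6 and 86.4 CPM with AGN192403 and 120.4 and 115 CPM in controls. Timeless and Tipin form 1 complex at the fork but gave different values, with Timeless at −0.36 ± 0.0629 in the activated knockout and −0.45 ± 0.0585 with AGN192403 at rest, both called, and Tipin at −0.13 ± 0.0508 and −0.07 ± 0.0548, neither called. The difference between the genes was not tested. Both were lower with AGN192403 in activated cells (Timeless −0.82 ± 0.0672, Tipin −0.70 ± 0.0542).

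Of the 6 chromatin copying genes, 5 were lower in the activated knockout, all but Slbp, and all 6 with AGN192403 in both states. Uhrf1 marks newly copied DNA for methylation. It had 165 and 161 CPM in activated knockout, 122 and 124 CPM in activated AGN192403 and 188 and 193 CPM in activated control cells (−0.23 ± 0.0416 and −0.63 ± 0.0429), with 248 and 244, 186 and 189 and 242 and 237 CPM in the resting knockout, AGN192403 and control cells. Chaf1b, a subunit of the histone chaperone CAF-1, had 23.9 and 24.6 CPM in activated knockout, 17.6 and 19.6 CPM in activated AGN192403 and 31.9 and 28.02 CPM in activated control cells. At rest Chaf1b had 45.2 and 42.9 CPM in the knockout, 34.1 and 36.04 CPM with AGN192403 and 52.8 and 46.5 CPM in controls, and its AGN192403 fall of −0.49 ± 0.0761 (SE, edgeR adjusted p = 2.76e-05) came second to that of Tk1. Slbp binds the stem loop of histone mRNA. Slbp had 63.5 and 62.7 CPM in activated knockout, 54.4 and 52.7 CPM in activated AGN192403 and 65.8 and 67.5 CPM in activated control cells, and 124 and 122, 91.7 and 104 and 124 and 125 CPM in the resting knockout, AGN192403 and control cells. Under AGN192403 Slbp gave similar values in both states, −0.32 ± 0.0609 in activated and −0.34 ± 0.0513 in resting cells. The other CAF-1 subunit Chaf1a, the histone chaperone gene Nasp and the chromatin remodeller gene Hells were lower with AGN192403 in activated cells, at −0.77 ± 0.0586, −0.65 ± 0.0457 and −0.85 ± 0.0473.

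Among the 8 DNA repair genes, 6 were lower in the activated knockout and 7 with AGN192403 in activated cells. Rad51ap1, a gene of homologous recombination, had 17.9 and 18.5 CPM in activated knockout, 13.1 and 13.1 CPM in activated AGN192403 and 22.6 and 28.02 CPM in activated control cells. It had the largest knockout fall of all members (−0.48 ± 0.0973, edgeR adjusted p = 0.000725), although its activated control libraries had the widest gap, relative to their level, of any member. At rest Rad51ap1 had 43.8 and 39.6 CPM in the knockout, 32.97 and 33.8 CPM with AGN192403 and 41.3 and 42.4 CPM in controls. Brca1, a tumour suppressor gene of the same repair route, had 37.2 and 39.7 CPM in activated knockout, 28.6 and 27.1 CPM in activated AGN192403 and 50.1 and 51.5 CPM in activated control cells, giving −0.41 ± 0.0641 and −0.87 ± 0.0686. At rest Brca1 had 84.3 and 81.7 CPM in the knockout, 68.8 and 72.1 CPM with AGN192403 and 94.8 and 89.96 CPM in controls. Exo1, an exonuclease of mismatch repair and end resection, had 27.5 and 27.7 CPM in activated knockout, 19.2 and 20.1 CPM in activated AGN192403 and 35.1 and 31.7 CPM in activated control cells (−0.28 ± 0.0792 and −0.76 ± 0.0854). Its resting libraries had 28.02 and 32.2 CPM in the knockout, 26.1 and 26.4 CPM with AGN192403 and 30.2 and 31.4 CPM in controls. The remaining genes of this role, Blm, Msh6, Usp1 and Wdr76, lay between −0.29 and −0.04 in the activated knockout and between −0.72 and −0.35 with AGN192403, and among these values only that of Usp1 in the knockout was not called.

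Ung, which removes uracil from DNA, was not called in any contrast. It had 17.6 and 17.5 CPM in activated knockout, 13.8 and 15.7 CPM in activated AGN192403 and 13.8 and 15.9 CPM in activated control cells, and 16.3 and 15.3, 13.7 and 14.9 and 15.6 and 12.3 CPM in the resting knockout, AGN192403 and control cells. Its log2 fold changes were 0.25 ± 0.113 (SE, edgeR adjusted p = 0.131) for the knockout and 0.00 ± 0.117 (SE, edgeR adjusted p = 0.995) for AGN192403 in activated cells. The activated knockout libraries were the highest of the 12. Per kilobase of exon it was the lowest member in 5 of the 6 groups, and its standard errors were about as wide as those of Gins1.

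Of the G1/S control genes 2 of 5 were lower in the activated knockout (E2f8 and Dtl, median of the role −0.20), while all 5 were lower with AGN192403 in activated cells (median −0.55). Cyclin E, encoded by Ccne1 and Ccne2, drives entry into S phase with CDK2. Ccne1 had 73.7 and 75.01 CPM in activated knockout, 58.9 and 65.5 CPM in activated AGN192403 and 77.2 and 77.03 CPM in activated control cells, and its AGN192403 fall of −0.30 ± 0.0636 was the smallest of the 53 called. At rest Ccne1 had 66.3 and 73.5 CPM in the knockout, 56.1 and 63.6 CPM with AGN192403 and 71.2 and 70.7 CPM in controls. Ccne2 had 43.2 and 44.2 CPM in activated knockout, 30.3 and 29.3 CPM in activated AGN192403 and 46.1 and 43.6 CPM in activated control cells. The knockout libraries of Ccne2 overlapped the controls (−0.04 ± 0.0687, edgeR adjusted p = 0.746), and the AGN192403 libraries lay below both (−0.59 ± 0.0742). Ccne2 at rest read 46.2 and 41.5 CPM in the knockout, 38.7 and 43.3 CPM with AGN192403 and 42.1 and 42.1 CPM in controls.

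E2f1, an activator of these promoters, had 28.4 and 26.9 CPM in activated knockout, 24.4 and 24.99 CPM in activated AGN192403 and 31.99 and 31.7 CPM in activated control cells, with −0.20 ± 0.0731 for the knockout, which missed the threshold (edgeR adjusted p = 0.0616), and −0.37 ± 0.0755 for AGN192403. At rest E2f1 had 38.1 and 38.5 CPM in the knockout, 32.9 and 35.5 CPM with AGN192403 and 36.1 and 37.5 CPM in controls. E2f8, an atypical E2F that represses the same promoters, had 29.7 and 33.9 CPM in activated knockout, 20.9 and 21.8 CPM in activated AGN192403 and 38.99 and 36.00 CPM in activated control cells (−0.26 ± 0.0739 and −0.81 ± 0.0804), against 87.2 and 89.7, 67.00 and 65.7 and 83.02 and 86.9 CPM in the resting knockout, AGN192403 and control cells. Dtl, the receptor through which Cdt1 is degraded in S phase, had 47.7 and 47.8 CPM in activated knockout, 40.4 and 36.2 CPM in activated AGN192403 and 57.5 and 53.8 CPM in activated control cells (−0.22 ± 0.0623 and −0.55 ± 0.0653). At rest Dtl had 73.3 and 71.1 CPM in the knockout, 61.8 and 63.4 CPM with AGN192403 and 70.9 and 68.1 CPM in controls, with no call.

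Counts over all genes under alternative settings are given further below for DESeq2 only, so most of these member counts cannot be set against them. The count of members in the activated knockout depended on the libraries and the tool. It was 24 without the first activated knockout library, 26 with DESeq2 and 30 without the 3 libraries richest in Malat1. Under all 13 settings tried, 23 of the 40 members were called lower every time, as were all 53 with AGN192403 in activated cells and 27 of 44 with AGN192403 at rest, where DESeq2 called 29. In the resting knockout the count was 0 under 10 settings, while 3 settings called Tk1 lower, 1 of them without the second resting control library.

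The perturbations were then compared with each other. In activated cells 52 members were higher in the knockout than with AGN192403 and 0 lower, where 13.0% of all genes tested were called higher and 7.34% lower. The median difference was 0.46, led by Rrm1 (0.74 ± 0.0433, edgeR adjusted p = 1.33e-11), Lig1 (0.73 ± 0.056), Hells (0.66 ± 0.0479) and Mcm7 (0.61 ± 0.0547). E2f1 and Ung were the members not called, at 0.17 ± 0.0768 and 0.25 ± 0.112. In resting cells 38 members were higher in the knockout than with AGN192403 and 0 lower, against 8.83% of all genes higher and 7.78% lower, with a median of 0.26. The largest differences there were those of Lig1 (0.46 ± 0.0459), Tyms (0.44 ± 0.06), E2f8 (0.41 ± 0.0565) and Clspn (0.41 ± 0.0509).

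Renewed activation by itself went with lower CPM of most members at 24 h. CPM is relative to each library and RNA per cell was not measured, so the change per cell is not known. In control cells 38 members were lower and 5 higher in activated than in resting cells, which has to be read against 37.4% of all genes called lower and 36.4% called higher, and the median log2 fold change was −0.32, against −0.02 over all genes. The largest falls were those of E2f8 (−1.18 ± 0.0628, edgeR adjusted p = 7.29e-15), Cdt1 (−1.07 ± 0.0692, edgeR adjusted p = 3.97e-13), Clspn (−0.92 ± 0.0538) and Slbp (−0.90 ± 0.054). The genes that rose were Rfc3, Tipin (0.31 ± 0.0523), Nasp (0.31 ± 0.0446), Dut (0.16 ± 0.0453) and Cdc45. Rfc3, a small subunit of the clamp loader, had 63.6 and 63.5 CPM in activated and 38.9 and 38.1 CPM in resting controls (0.73 ± 0.0654, edgeR adjusted p = 2.79e-10). It was the 1 member that rose in all 3 conditions, by 0.71 ± 0.0669 in the knockout and 0.42 ± 0.0715 with AGN192403. The rise of Cdc45 was slight at 0.13 ± 0.0573 (edgeR adjusted p = 0.0436) and was called under 7 of 13 settings. The 11 members without a call in controls were Cdc6, Mcm3, Mcm10, Gins2, Prim1, Tyms, Hells, Exo1, Ung, Ccne1 and Ccne2, all between −0.14 and 0.12.

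In knockout cells activation went with 46 members lower and 2 higher (Rfc3 and Nasp), against 36.5% of all genes lower and 37.2% higher, and a median of −0.49. With AGN192403 51 were lower and 1 higher, against 36.1% lower and 33.9% higher, and a median of −0.70. E2f8 again led the falls, at −1.49 ± 0.0636 in the knockout and −1.63 ± 0.0728 with AGN192403. Clspn followed in both (−1.37 ± 0.0561 and −1.42 ± 0.0626), then Cdt1 (−1.35 ± 0.0696) and Rad51ap1 (−1.22 ± 0.0876) in the knockout, and Rad51ap1 (−1.35 ± 0.1) and Brca1 (−1.35 ± 0.0651) with AGN192403.

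The differences between these responses were tested as interactions. The activation response of the knockout minus that of the control was below 0 and called for 17 members and above 0 for 0, against 1.89% of all genes below and 3.07% above, with a median of −0.25. Rad51ap1 (−0.49 ± 0.123, edgeR adjusted p = 0.0185), Clspn (−0.45 ± 0.0788), Tyms (−0.44 ± 0.0825) and Pole (−0.41 ± 0.0699) differed most. The count was 11 without the first resting knockout library and 12 with DESeq2. For Rad51ap1 the adjusted p ranged up to 0.151 over the settings, and it was called in 12 of 17. For AGN192403 minus vehicle 48 members were called below 0 and 0 above, against 11.1% of all genes below and 8.62% above, with a median of −0.47. Cdc45 (−0.81 ± 0.0872, edgeR adjusted p = 3.4e-07), Prim1 (−0.72 ± 0.0824), Rfc4 (−0.67 ± 0.113) and Pola1 (−0.67 ± 0.0773) differed most. Cdc45 rose with activation in controls and was lower after activation in AGN192403 cells (−0.68 ± 0.0656), and so were Tipin (−0.31 ± 0.0568), Nasp (−0.19 ± 0.0477) and Dut (−0.28 ± 0.0499). The 6 members without a called difference for AGN192403 were Cdt1, Chaf1b, Slbp, Ung, Ccne1 and E2f1. Slbp fell with activation by nearly the same amount in controls (−0.90 ± 0.054) and with AGN192403 (−0.88 ± 0.0577), a difference of 0.02 ± 0.0798.

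**Figure D3:**
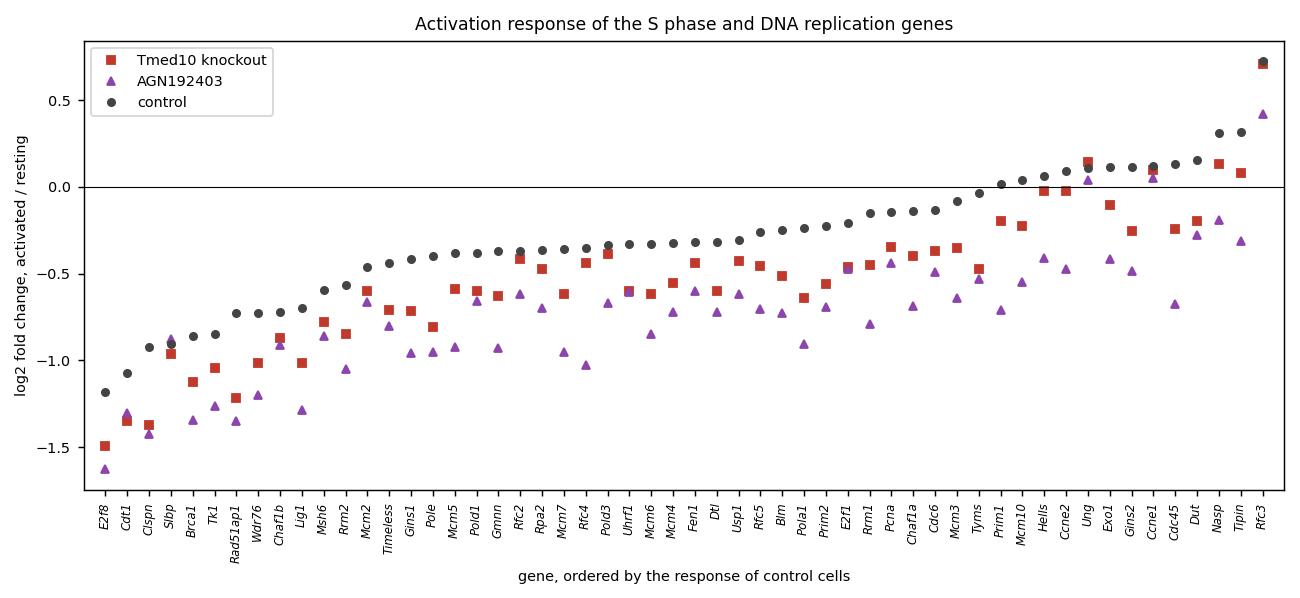
Log2 fold change of activated over resting cells (vertical axis) for each member in the Tmed10 knockout (squares), with AGN192403 (triangles) and in control cells (circles), with genes ordered by the control response. Rfc3 lies above 0 in all 3 conditions, and the AGN192403 points of Cdc45, Tipin, Nasp and Dut lie below 0 where the control points lie above it.

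Levels per kilobase of exon differed widely among the members. In resting control cells the median was 16.3 CPM per kilobase, with Rrm2 highest at 121, then Mcm6 at 83.7 and Pcna at 82.4, and Ung lowest at 2.55. In activated AGN192403 cells the median was 8.77 CPM per kilobase, Pcna led at 52.8, ahead of Rrm2 at 42.9, and Exo1 was lowest at 2.33. In activated knockout cells the median was 12.7 and in activated controls 13.2 CPM per kilobase, with Pcna first in the knockout at 66.6 and Rrm2 first in controls at 81.8.

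Other genes of the same pathway were counted for context. Of all genes tested, 8.78% were called lower and 10.8% higher in activated knockout cells, and 4.63% lower and 2.81% higher in resting knockout cells. With AGN192403 18.3% were lower and 16.4% higher in activated cells, and 13.7% lower and 11.6% higher at rest. Of 50 further replication and S phase genes that are not members, 23 were lower and 1 higher in activated knockout cells (median −0.20), led by Brca2 (−0.70) and Fancd2 (−0.64). The total of 24 called was 14 without the first activated control library and 15 without the second activated knockout library. Of the same 50, 41 were lower and 2 higher with AGN192403 in activated cells (median −0.60), led by Fancd2 (−1.30) and Fanci (−1.11). Of 30 genes of G2 and M phase, which follow S phase in the cycle, all 30 were lower in activated knockout cells (median −0.45), with AGN192403 in activated cells (median −1.31) and with AGN192403 at rest (median −0.58), and 3 (Cenpf, Mki67 and Cenpe) in resting knockout cells. The summed G2 and M phase transcripts were 2033 and 2086 CPM in activated knockout, 1219 and 1193 CPM in activated AGN192403 and 2939 and 2903 CPM in activated control cells.

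**Figure D4:**
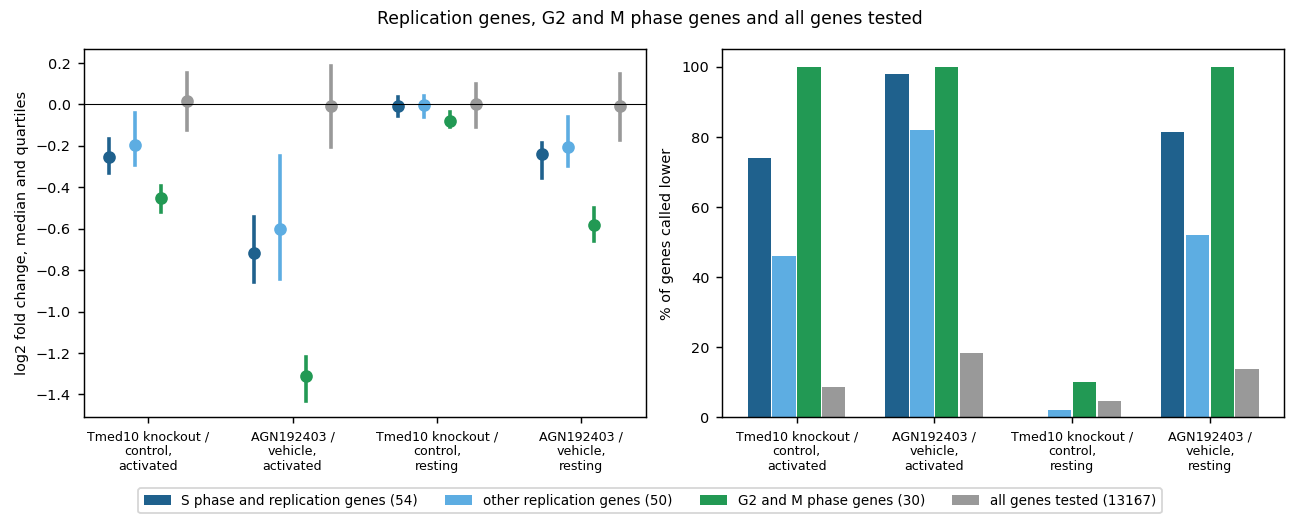
Left, median log2 fold change with the quartiles (vertical axis) of the 54 members, 50 other replication genes, 30 G2 and M phase genes and all 13167 genes tested in the 4 comparisons with control vehicle cells, and right, the percentage of each list called lower. The member medians are −0.26, −0.72, −0.01 and −0.24 from left to right, beside medians of all genes within 0.02 of 0, and the G2 and M phase medians lie lower than those of the members in each comparison.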

How the data were processed

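The authors deposited 1 table of raw read counts per Ensembl gene. Per the labels these counts came from STAR 2.6.0c and HTSeq on GRCm38 (mm10), while the study's methods name another STAR version. Whether HTSeq counted by strand is not given in the sources used here. Symbols were matched for 46005 of 46603 identifiers, and the 598 without one held 0.0709% of counts.

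Counts were analysed in edgeR 4.0.16 (R 4.3.3, limma 3.58.1) after filterByExpr, which kept 13167 genes with 99.9% of counts, with TMM factors of 0.976 to 1.02. A quasi-likelihood fit of 6 group means to all 12 libraries (6 residual degrees of freedom, common biological coefficient of variation 0.0306) gave 11 contrasts, with Benjamini-Hochberg adjustment over all genes tested. Totals of 9089350 to 16481840 counts set the precision, which is lowest for the least expressed members. The pipeline was tested on simulated data.

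The members and all lists were chosen with earlier results of these data known. Values per library are given in the text for 30 members listed in the design and for Rad51ap1. For Mcm2 and Pcna they are given for activated cells only. For Rfc3 they are given for control cells only. Other members are given by fold changes and ranges. Alternatives were other filters, scalings and subsets of libraries, a replicate block, and DESeq2 1.42.0. Promoters came from RefSeq (GRCm38.p6).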

Additional observations from a re-analysis of the deposited data

Results flagged for a closer look

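The response to activation differed between knockout and control cells, by an interaction term in edgeR's quasi-likelihood test, for 17 members. Of all genes tested, 1.89% were called below 0 and 3.07% above. The largest differences (knockout minus control, log2) were −0.49 for Rad51ap1, −0.45 for Clspn, −0.44 for Tyms and −0.41 for Pole. That of Rad51ap1 was not called under every setting.

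The response differed in the same kind of test between AGN192403 and vehicle for 48 members, where 11.1% of all genes tested were called below 0 and 8.62% above. The largest differences (AGN192403 minus vehicle, log2) were −0.81 for Cdc45, −0.72 for Prim1, −0.67 for Rfc4 and −0.67 for Pola1.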

How the results depend on the processing

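Of 435 member results that were called, none changed direction under any alternative, and 348 were called under every one. In activated knockout cells 40 members were called, against 26 with DESeq2 and 24 to 36 when 1 library was left out, with the lowest count without the first activated knockout library. In resting knockout cells 0 members were called, against 1 (Tk1) when only the libraries of the contrast were fitted, 1 with the replicate block, and 0 to 1 when 1 library was left out, with the 1 found without the second resting control library. With AGN192403 at rest 44 members were called, against 29 with DESeq2. For the difference in activation response between knockout and control 17 members were called, against 11 to 22 when 1 library was left out, with the lowest count without the first resting knockout library. Where a group was left with 1 library, that library was assumed to vary like the other groups. The cause of these changes was not tested. Counts over all genes are given below for DESeq2 only, so whether the members changed more than other genes is not shown.

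Replicate numbers were not treated as pairs, because nothing in the labels ties them to a shared source and the deviations of same-numbered libraries correlated above 0.1 in 3 of 15 pairs of groups (range −0.00507 to 0.239). The 3 lay between activated AGN192403 cells and the resting (0.239) or activated (0.213) controls, and between both kinds of control (0.189). With the replicate block the members called were 41 (knockout, activated), 53 (AGN192403, activated), 1 (knockout, resting), 45 (AGN192403, resting), 44 (activation, control), 52 (activation, AGN192403), 48 (activation, knockout), 24 and 48 (difference in response for the knockout and for AGN192403), and 52 and 41 (knockout against AGN192403, activated and resting).

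Without the 3 libraries richest in Malat1, an alternative chosen after seeing the data, the counts were 30, 53, 0, 40, 41, 52, 48, 19, 36, 50 and 42 in the same order. DESeq2 called fewer genes in all, 1355 against 2583 (knockout, activated), 2884 against 4570 (AGN192403, activated), 366 against 979 (knockout, resting), 1834 against 3341 (AGN192403, resting), 307 against 653 and 1395 against 2592 (differences in response for the knockout and for AGN192403), and 1441 against 2673 and 1235 against 2186 (knockout against AGN192403, activated and resting). Of the 50 other replication genes DESeq2 called 13 against 24 in activated knockout cells and 20 against 32 for the difference in response with AGN192403. With 2 libraries a group, depth and replicate number limit small changes most, above all for Gins1, Ung and Gins2.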

Other observations

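Some replication genes outside the 54 moved the other way from most members in the comparisons named here, while E2f2 and E2f7 fell with activation as most members did. Pold4, a small accessory subunit of the lagging strand polymerase, was higher in activated knockout cells by 0.29 (log2) and with AGN192403 in activated cells by 0.43. Rrm2b, the ribonucleotide reductase subunit induced by p53, was higher with AGN192403 by 0.22 in activated and 0.29 in resting cells, and Pole3, an accessory subunit of the leading strand polymerase, by 0.39 in resting cells. In control cells the origin recognition genes Orc1 and Orc2 were higher after activation by 1.18 and 1.13 and Shmt1, of the thymidylate cycle, by 1.65, while the E2F family genes E2f2 and E2f7 were lower, at −1.74 and −1.68. All of these passed the threshold in edgeR, and they were chosen after their values were seen. Of the 50 genes outside the members, 11 were called higher and 30 lower after activation in control cells. Of all genes tested, 36.4% were called higher and 37.4% lower there. With AGN192403 in activated cells Orc1 (−0.82), Orc2 (−0.32) and Shmt1 (−0.78) were called lower, as most members were. In the activated knockout Orc1 (−0.33) and Shmt1 (−0.26) were called lower and Orc2 (−0.04) was not called.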
